A study of Homo sapiens with 24 samples.

Results

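The 76 genes described here encode mitochondrial ribosomal proteins, the proteins that, with ribosomal RNA made inside the organelle, form the ribosome of the mitochondrion. They are all the Ensembl identifiers of the deposited table whose current symbol is MRPL or MRPS followed by a number and, in some cases, a letter from A to C. That rule found 76 of the 24053 identifiers, 48 with an MRPL symbol (large subunit) and 28 with an MRPS symbol (small subunit). MRPS21 and MRPL45 fit the rule by name, had no identifier matched and are not analysed here. The rule picks genes by name alone, but the family was chosen with earlier results of these data known.

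The RNA came from ARPE-19 cells, a long-established line from human retinal pigment epithelium. Cells received scramble siRNA, Pink1 siRNA, Nrf2 siRNA, or both in the Nrf2-Pink1 siRNA group (the double siRNA). There are 3 biological replicates per group, and the 2 technical replicates of each were averaged here to give 12 samples over the 4 groups. Pink1 siRNA targets PINK1, a kinase that marks damaged mitochondria for removal, and Nrf2 siRNA targets NFE2L2, the gene of the antioxidant transcription factor NRF2. Some labels call these groups knockouts, whereas the design text gives siRNA and both targets kept part of their transcript. All samples come from 1 cell line. The labels' protocols also describe scratch wounding at high confluence, without stating if wounded cells were the source of this RNA. Levels are TPM (a transcript's share of all transcripts, on a fixed total), which corrects for transcript length and has the same total in every sample. Their depth is unknown.

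Mitochondrial ribosomes translate only the few membrane proteins of the respiratory chain and ATP synthase that are encoded by mitochondrial DNA. All of their proteins are encoded in the nucleus, made in the cytosol and imported. Many have a counterpart in bacterial ribosomes, and others exist only in mitochondria. The genes of the family are transcribed constitutively in nearly all cells, and binding sites for ETS-family factors such as GABP, the factor also called nuclear respiratory factor 2, are common in the promoters of nuclear genes for mitochondria. That factor is a different protein from the NRF2 encoded by NFE2L2.

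PINK1 stood at 53.9, 57.7 and 55.8 TPM with scramble, between 12.4 and 18.3 TPM with Pink1 siRNA, between 15.3 and 20.5 TPM with the double siRNA and between 50.7 and 66.6 TPM with Nrf2 siRNA. NFE2L2 stood between 74.3 and 89.2 TPM with scramble, between 64.1 and 71.6 TPM with Pink1 siRNA, between 11.1 and 25 TPM with Nrf2 siRNA and between 22.2 and 34.4 TPM with the double siRNA, so that every sample given an siRNA was below every scramble sample for its target. Of the markers of retinal pigment epithelium, the keratins KRT8 and KRT18 lay between 465 and 1084 TPM and the transcription factors MITF and OTX2 between 47.7 and 110.5 TPM. KRT18 averaged 811.1 ± 69.3 TPM (SD, n = 3) with scramble and 563.7 ± 93.0 TPM with Nrf2 siRNA (log2 -0.53, limma adjusted p = 0.225). It was called lower there after the rescaling described below. Of the other epithelial markers, BEST1 averaged 5.9 TPM, PMEL 5.08 TPM, RLBP1 0.725 TPM and SERPINF1 0 TPM with scramble. SERPINF1 averaged 2.615 TPM with Pink1 siRNA (limma adjusted p = 0.0764) and was called higher there after rescaling. The pigment enzymes were not level between groups either. TYRP1 rose from 9.91 ± 1.70 TPM (SD, n = 3) with scramble to 45.5 ± 6.70 with Pink1 siRNA, 23.2 ± 1.84 with Nrf2 siRNA and 26.6 ± 7.11 with the double siRNA (log2 2.09, 1.16 and 1.32, limma adjusted p = 0.00056, 0.0248 and 0.00856). TYR, at 0.402 ± 0.183 TPM with scramble, rose to 3.71 ± 0.354, 2.65 ± 0.55 and 4.09 ± 0.634 TPM (log2 1.76, 1.38 and 1.86, limma adjusted p = 0.0042, 0.0236 and 0.00301). Both calls with Nrf2 siRNA ended when any 1 of the 6 samples was left out, and without scramble replicate 2 TYRP1 was no longer called with the double siRNA. The part of these differences in the results below was not tested. RPE65, the retinoid isomerase that defines the mature tissue, stayed between 0 and 0.36 TPM. Among markers of other cells, the leukocyte gene PTPRC reached at most 0.445 TPM and the neuronal gene RBFOX3 at most 0.58 TPM. The lysosomal gene CD68, used as a macrophage marker, was at 30.3 ± 9.80 TPM (SD, n = 3) with scramble and 66.6 ± 33.5 TPM with Nrf2 siRNA, and its part in the results below was not tested. A single identifier with no symbol, ENSG00000226958, held between 15.5% and 41.4% of all TPM, with both ends in the double siRNA group (replicate 3 and replicate 1). Because TPM is a share of a fixed total, the levels below are given both as deposited and after this identifier was left out and the rest rescaled to the full total ("rescaled"). Between these scales the median log2 difference from scramble over all genes tested moved from 0.0217 to -0.0363 with Pink1 siRNA, from 0.0162 to 0.00205 with Nrf2 siRNA and from 0.00588 to -0.0787 with the double siRNA. The set of genes tested also changed, from 13810 to 14735, because the filter of an average of 1 or more was applied again after rescaling.

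A promoter window (250 bases before to 50 after a transcription start in RefSeq, build GRCh38.p14) was found for 67 of the 76 genes. The ETS core motif CCGGAAG, searched on both strands, was in the window of 29 of them (43.3%), against 12.2% of all 27305 genes in that table and 23.3% of the 9943 genes tested here that have a window. Median GC content was 60.3% in the windows of the family and 58.7% in all windows. The 29 genes include MRPL3, MRPL18, MRPL20, MRPL33, MRPL47, MRPL51, MRPL52, MRPL58, MRPS12, MRPS18A, MRPS18C, MRPS22 and MRPS31. The core of the antioxidant response element, TGACNNNGC, to which NRF2 binds with a small MAF partner, was in 8 windows (11.9%), those of MRPL34, MRPL39, MRPL49, MRPS2, MRPS14, MRPS23, MRPS27 and MRPS35, against 16.1% of all genes and 19.5% of genes tested. The palindromic core for nuclear respiratory factor 1 was in 1 window (1.49%), that of MRPL17, against 1.52% of all genes and 2.76% of genes tested. No motif overlaps another in its definition, and a match is a description of letters, not a bound site.

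The 150 bases before the start are shown for 3 genes with the smallest adjusted p in a comparison with scramble below (MRPL47, MRPL37 and MRPS24) and for MRPS35, which has the antioxidant core and was low with Nrf2 siRNA. The RefSeq sequences are from GRCh38.p14, 5′ to 3′ on the strand of the gene, with a motif in capitals. MRPL47 lies on the minus strand at chr3:179604639-179604788, MRPL37 on the plus strand at chr1:54200017-54200166, MRPS24 on the minus strand at chr7:43869518-43869667 and MRPS35 on the plus strand at chr12:27710682-27710831.
MRPL47: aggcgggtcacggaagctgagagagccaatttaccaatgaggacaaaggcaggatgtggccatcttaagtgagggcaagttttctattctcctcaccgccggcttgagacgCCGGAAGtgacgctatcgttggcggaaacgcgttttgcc
MRPL37: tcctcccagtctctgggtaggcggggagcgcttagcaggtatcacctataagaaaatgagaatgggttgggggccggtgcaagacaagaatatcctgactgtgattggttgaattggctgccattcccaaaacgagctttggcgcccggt
MRPS24: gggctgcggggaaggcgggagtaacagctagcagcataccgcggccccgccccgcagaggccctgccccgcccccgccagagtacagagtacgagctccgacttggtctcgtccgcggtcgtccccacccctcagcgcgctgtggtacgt
MRPS35: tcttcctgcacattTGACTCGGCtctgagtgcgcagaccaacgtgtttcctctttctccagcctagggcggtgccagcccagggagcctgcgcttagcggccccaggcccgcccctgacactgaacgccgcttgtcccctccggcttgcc
The capitals in MRPL47 are the ETS core and those in MRPS35 the antioxidant core. MRPL37 and MRPS24 have none of the 3 motifs in the window searched.

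All 76 genes were detected above the filter used for testing, an average TPM of 1 or more across all 12 samples. With scramble their mean levels ran from 2.49 TPM (MRPL50) to 120.9 TPM (MRPL51), a 48.6-fold range per transcript length. The median was 35.1 TPM (quartiles 24.6 and 50.9), against 11.7 TPM over all genes tested, and 71 of the 76 were above that overall median. The order is loose: of the 75 pairs of neighbours in it, 71 overlapped in their 3 scramble samples. Summed, the family made up between 0.23% and 0.386% of all TPM in a sample.

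The 6 genes with the highest mean over all samples were MRPL51, MRPS6, MRPL3, MRPS24, MRPL15 and MRPL33. MRPL51, a protein of the large subunit found only in mitochondria, stood at 119.0, 109.6 and 134.2 TPM in the scramble samples. MRPS6, a small-subunit protein with a bacterial counterpart, stood at 122.4, 116.5 and 114.2 TPM. MRPL3, a large-subunit protein that reaches towards the catalytic centre, stood at 96.5, 98.7 and 79.7 TPM, MRPL15 at 87.0, 86.6 and 84.0 TPM, and MRPL33, a small protein of the large subunit, at 94.7, 94.6 and 121.6 TPM. At the other end were MRPL50 (2.73, 3.04 and 1.71 TPM), MRPL30 (4.22, 6.59 and 8.29 TPM), MRPS17 (9.73, 8.72 and 9.10 TPM) and MRPL41 (7.46, 9.29 and 11.1 TPM). Neither end was held by 1 subunit. The 50 large-subunit genes had a scramble median of 35.8 TPM and the 25 small-subunit genes 35.6 TPM, counting MRPS18A and MRPS30 as large-subunit proteins, where they sit in the ribosome.

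By position in the ribosome, the 6 genes of the peptide exit tunnel and membrane contact had a scramble median of 42.7 TPM, the 6 of the central protuberance 40.2 TPM, the 5 of the stalk that recruits translation factors and its base 32.0 TPM, and the 11 other large-subunit genes found only in mitochondria 24.8 TPM. The stalk genes covered a range of levels. MRPL12, which is present in several copies and also binds the mitochondrial RNA polymerase, was at 22.9, 21.8 and 31.0 TPM. MRPL10, the protein on which MRPL12 is mounted, was at 36.3, 38.8 and 35.7 TPM, and MRPL11 at the base of the stalk at 49.8, 48.0 and 55.5 TPM. MRPS12, a protein of the decoding centre, was at 26.0, 30.5 and 35.5 TPM, and MRPL58, which has the fold of a release factor and frees stalled chains, at 23.1, 25.6 and 20.9 TPM. Of the 3 paralogs of the MRPS18 family, MRPS18B stood above the others, which overlapped. MRPS18B, of the small subunit, was at 44.9, 48.9 and 52.7 TPM, MRPS18C, also of the small subunit, at 38.4, 22.3 and 32.9 TPM, and MRPS18A, of the large subunit, at 26.3, 25.1 and 22.9 TPM. MRPS36 carries a family name and is now known as a part of the α-ketoglutarate dehydrogenase complex. It was at 15.7, 16.3 and 27.3 TPM and is counted with the 76 but with neither subunit.

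**Figure D1:**
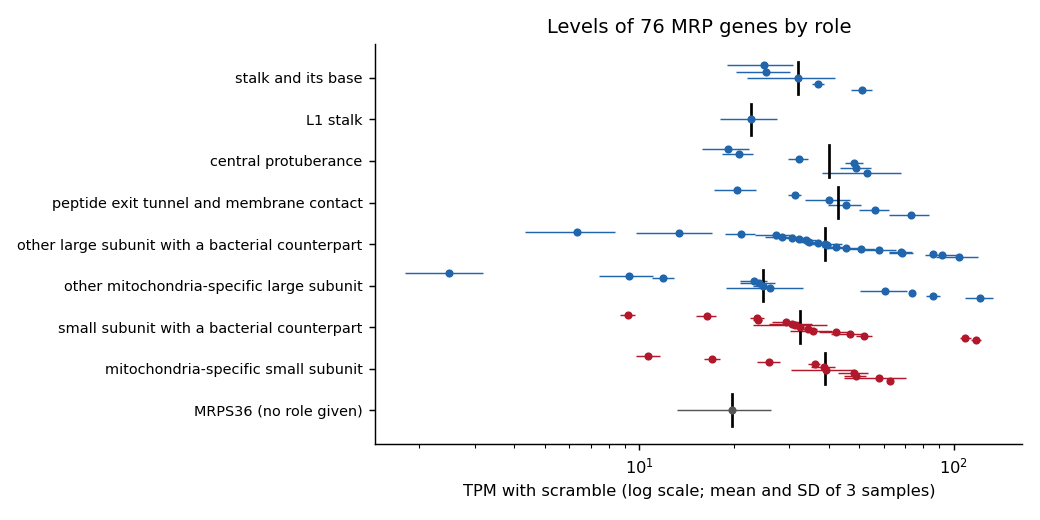
TPM with scramble (log axis) of the 76 genes, grouped by position in the ribosome; points are means and lines the SD of 3 samples, and black bars are group medians. Levels run from 2.49 TPM (MRPL50) to 120.9 TPM (MRPL51) and each of the larger groups spans much of that range.

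The table also holds 14 identifiers named as pseudogenes of these genes, 4 of them averaging 1 TPM or more. MRPS10P1 had the widest range, between 0 and 24.6 TPM, and MRPS36P1 lay between 0 and 7.34 TPM. Reads of a gene and of a near-identical copy can be split between them by the counting, which was not tested here and bears on MRPS10, MRPS31, MRPS36 and MRPL53.

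The first question was whether any of the siRNAs changed the family as a whole. The summed TPM was 3096, 3033 and 3290 in the scramble samples, 2664, 2882 and 3056 with Pink1 siRNA, 2995, 2499 and 2800 with Nrf2 siRNA, and 2301, 2846 and 3860 with the double siRNA. With Nrf2 siRNA all samples were below all scramble samples. With Pink1 siRNA 1 of the 3 lay inside the scramble range, and the double siRNA group spread to both sides of it. The group means were 3140 ± 134 (SD, n = 3) with scramble, 2867 ± 196 with Pink1 siRNA, 2765 ± 250 with Nrf2 siRNA and 3002 ± 791 with the double siRNA, which are 91.3%, 88.1% and 95.6% of scramble.

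Part of that spread moved with the unnamed identifier. Within each of the 4 groups the sample with the highest share of ENSG00000226958 had the lowest summed level of the family: 35.5% and 2664 TPM with Pink1 siRNA (replicate 1), 38.6% and 2499 TPM with Nrf2 siRNA (replicate 2), and 41.4% and 2301 TPM with the double siRNA (replicate 1), as well as 36.3% and 3033 TPM with scramble (replicate 2). The lowest share, 15.5% in double siRNA replicate 3, went with the highest sum, 3860 TPM. A fall of the sum with a rising share is in part arithmetic, since the total is fixed.

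**Figure D2:**
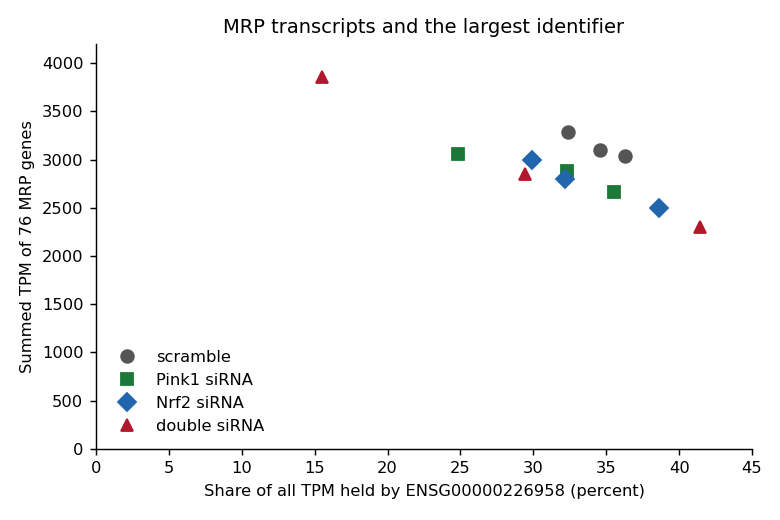
Summed TPM of the 76 genes against the share of all TPM held by ENSG00000226958 (percent), 1 point per sample. The double siRNA samples lie at the ends, 15.5% with 3860 TPM and 41.4% with 2301 TPM, and the 3 scramble samples lie above the siRNA samples of similar share.

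After rescaling, the 3 scramble samples stood at 4732, 4766 and 4867. Pink1 siRNA samples stood at 4129, 4260 and 4068, Nrf2 siRNA samples at 4272, 4069 and 4133, and double siRNA samples at 3925, 4029 and 4570. On this scale each of the 9 siRNA samples was below each scramble sample, an observation made after the values were seen. The means were 86.7%, 86.8% and 87.2% of the scramble mean of 4788 ± 70.2 (SD, n = 3), with an SD of 98.1, 104 and 346. No test is given for the sum. With 3 samples against 3, a two-sided exact permutation p cannot go below 0.1.

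The mean sums of both subunits were lower in all 3 siRNA groups. Rescaled, the large-subunit genes summed to 3205 ± 94.6 (SD, n = 3) with scramble and to 86.8%, 86.4% and 89.2% of that with Pink1, Nrf2 and double siRNA. The small-subunit genes summed to 1554 ± 45.9 and to 86.4%, 87.8% and 83.6%. Double siRNA replicate 3, at 3131 for the large subunit, lay above scramble replicate 1 at 3103. As deposited that double siRNA sample had the highest sums of both subunits, 2645 TPM (large) and 1204 TPM (small). The small subunit's part of the sum of both was 32.6% ± 1.27 (SD, n = 3) with scramble, 32.6% ± 0.493 with Pink1 siRNA, 33.0% ± 0.361 with Nrf2 siRNA and 31.2% ± 0.802 with the double siRNA. The samples overlapped between scramble and the single siRNA groups. The double siRNA samples lay between 30.4% and 32.0% and touched the scramble range of 31.8% to 34.1%.

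**Figure D3:**
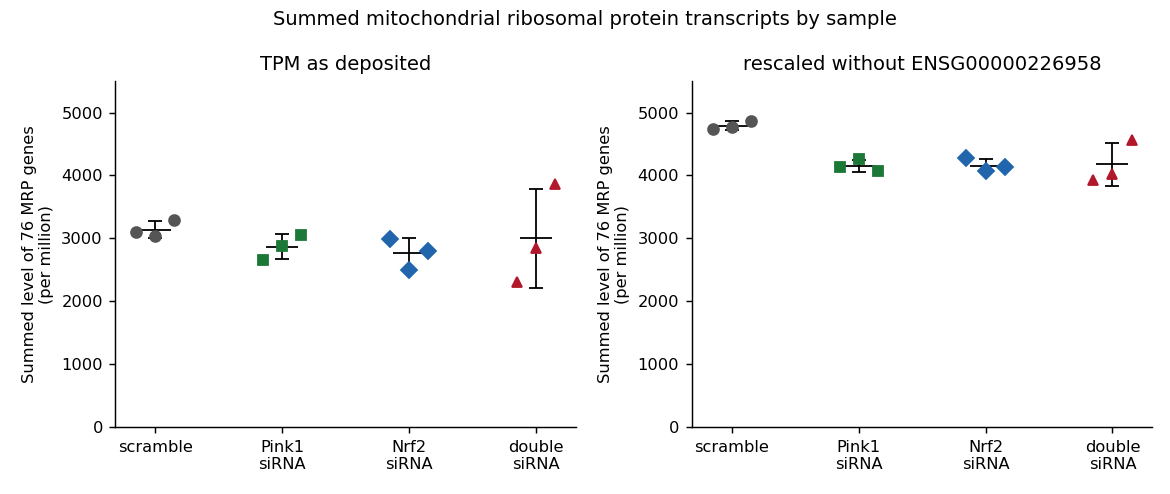
Summed level of the 76 genes in each of the 12 samples, as deposited (left, TPM) and rescaled without ENSG00000226958 (right, same unit); points are samples, bars the mean and SD of 3. Rescaled, the scramble samples lie between 4732 and 4867 and the siRNA samples between 3925 and 4570.

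Gene by gene, no member of the family was called in any comparison as deposited. A gene was called when the adjusted p of limma (Benjamini-Hochberg over the 13810 genes tested) was under 0.05. The difference among the 4 groups taken at once called 0 of the 76 and 1.13% of all genes, and its smallest adjusted p in the family was 0.142, for MRPL37. After rescaling that test called MRPL37 and MRPL47, against 2.73% of all genes. The call of MRPL37 (adjusted p = 0.0113) held without each of the 12 samples, at most 0.0481, and that of MRPL47 (0.0452) held in 1 of 12. As deposited and without adjustment 5 of the 76 (6.58%) had a p under 0.05 in that test, against 13.8% of all genes. Rescaled, 16 (21.1%) did, and the share of all genes on that scale is not given here.

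The 3 comparisons with scramble share the same scramble samples, so they are not independent of each other. In bulk RNA, less RNA per cell and fewer cells that express a gene cannot be told apart. With Pink1 siRNA, 55 of the 76 genes had a lower mean log2 level than with scramble, and the largest differences in log2 were those of MRPL42, MRPL47, MRPS22, MRPL18 and MRPL32. The median log2 difference was -0.11, against 0.0217 over all genes tested, of which 46.7% were lower. The 3 siRNA samples were all below the 3 scramble samples for 15 genes (19.7%), against 11.2% of all genes, and all above for 0, against 13.8%. limma called 0 of the 76, against 0.471% of all genes (smallest adjusted p 0.106), and 5 had an unadjusted p under 0.05 (6.58%, against 12.2% of all genes). The median was -0.0649 without scramble replicate 3, -0.172 without Pink1 siRNA replicate 3 and -0.182 after rescaling, where 26 genes (34.2%) were apart below scramble, against 14.3% of all genes, and 1 above, against 11.3%. On that scale 17 of the 76 (22.4%) had an unadjusted p under 0.05 by limma, and the share of all genes is not given here.

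MRPL47, a large-subunit protein with a bacterial counterpart, was at 30.8, 26.7 and 34.6 TPM with scramble and at 21.1, 18.4 and 17.7 TPM with Pink1 siRNA. The groups did not overlap, and the mean with siRNA was 62.2% of scramble. The log2 difference was -0.65 (SE 0.16, 95% interval -0.999 to -0.309), with a limma adjusted p of 0.106. MRPL47 was also below every scramble sample with Nrf2 siRNA (26.0, 23.0 and 22.9 TPM), while the double siRNA samples (19.4, 24.2 and 27.9 TPM) reached into the scramble range. Rescaled, the Pink1 siRNA difference was called (log2 -0.73, limma adjusted p = 0.0245), 1 of 2 members called on that scale against 1.17% of all genes. That call held without Pink1 siRNA replicate 1 and ended without each of the other 5 samples of the comparison, at adjusted p up to 0.107.

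MRPL18, a protein of the central protuberance, was at 45.1, 47.9 and 51.5 TPM with scramble and at 30.3, 33.7 and 33.4 TPM with Pink1 siRNA, with no overlap. Its log2 difference was -0.56 (SE 0.21, limma adjusted p = 0.3), and -0.63 with an adjusted p of 0.0435 after rescaling, a call that ended without any 1 of the 6 samples (adjusted p 0.101 to 0.173). MRPL42, a protein of the large subunit found only in mitochondria, had the largest difference: 21.3, 34.2 and 22.5 TPM with scramble against 13.2, 18.5 and 14.7 TPM (log2 -0.70, SE 0.26, limma adjusted p = 0.281). Its scramble replicate 2 stood well above the other scramble samples. MRPS22, a small-subunit protein found only in mitochondria, was at 42.7, 45.8 and 29.2 TPM with scramble and 26.3, 23.5 and 27.9 TPM with Pink1 siRNA, apart by a small margin. MRPL32, which must be cleaved by a protease of the inner membrane before it joins the ribosome, was at 32.8, 36.8 and 32.1 TPM with scramble and 20.3, 28.1 and 21.7 TPM with Pink1 siRNA (log2 -0.53, SE 0.21, limma adjusted p = 0.326).

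The other 10 genes whose groups did not overlap were MRPL16, MRPL19, MRPL33, MRPL39, MRPL57, MRPL58, MRPS6, MRPS9, MRPS14 and MRPS17, with log2 differences from -0.50 (MRPL33) to -0.13 (MRPS6). Among positions in the ribosome, the median log2 difference was -0.20 for the 6 genes of the central protuberance, -0.19 for the 21 other large-subunit genes with a bacterial counterpart and -0.04 for the 5 stalk genes. MRPL12 of the stalk was at 22.3, 20.2 and 24.1 TPM and MRPL11 at 52.8, 61.8 and 63.1 TPM, both overlapping scramble.

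**Figure D4:**
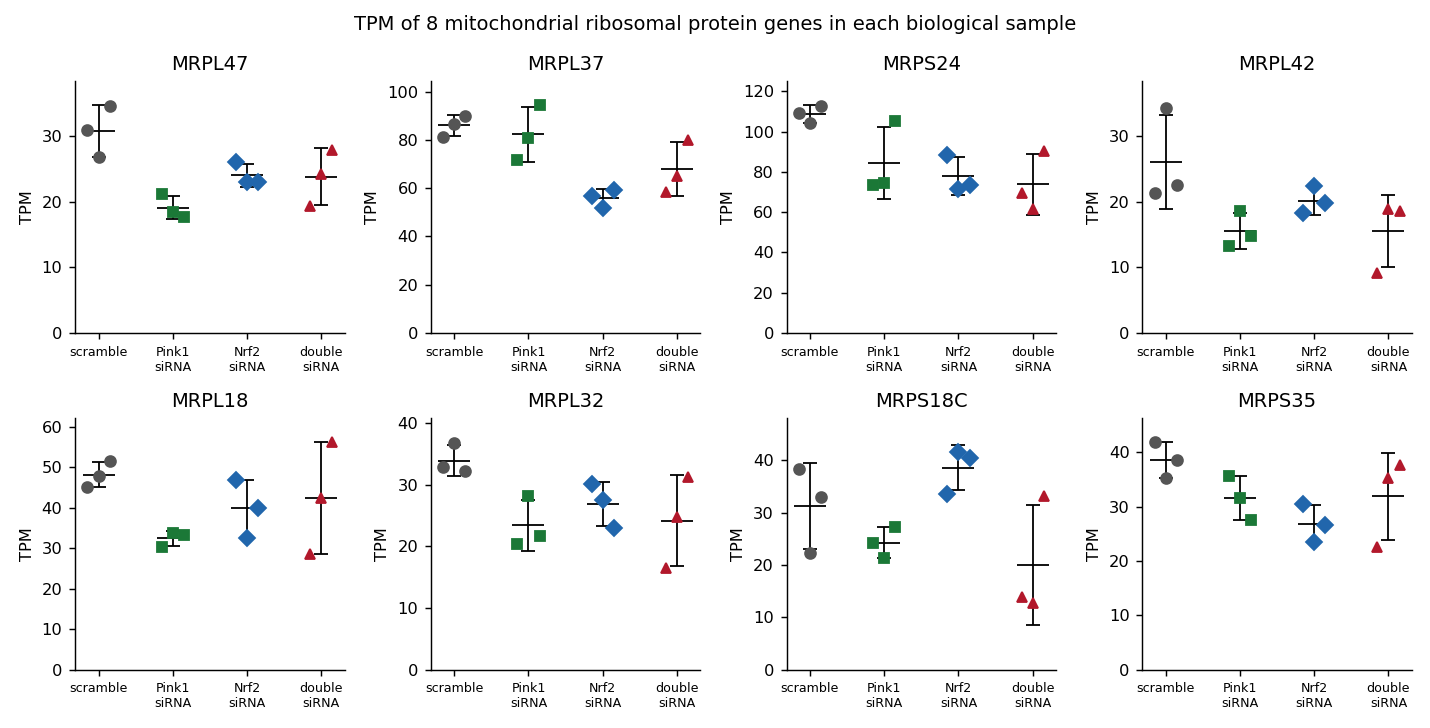
TPM of 8 genes in each of the 12 samples; points are samples, bars the mean and SD of 3, and each axis starts at 0. Samples lie apart from scramble in MRPL18 with Pink1 siRNA, MRPS35 with Nrf2 siRNA, MRPL47 with Pink1 and Nrf2 siRNA, MRPL42 with Pink1 and double siRNA, MRPL37 and MRPS24 with Nrf2 and double siRNA, MRPL32 in all 3 siRNA groups and MRPS18C in none.

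With Nrf2 siRNA, 61 of the 76 genes were lower on average than with scramble, with a median log2 difference of -0.20, against 0.0162 over all genes tested, of which 47.5% were lower. The samples were all below scramble for 14 genes, against 9.26% of all genes (14 of 76 is 18.4%), and all above for 2, MRPS31 and MRPL49, against 13.6%. The largest differences among those 14 were in MRPL37, MRPL52, MRPS35, MRPS24 and MRPL20. limma called 0 of the 76, against 0.333% of all genes (smallest adjusted p 0.108), and 4 had an unadjusted p under 0.05, against 12.2% of all genes. Without Nrf2 siRNA replicate 2, the sample with the highest share of ENSG00000226958 in its group, the median was -0.107. After rescaling it was -0.22, with 25 genes (32.9%) apart below scramble, against 10.7% of all genes, and 1 above, against 11%. On that scale 15 of the 76 (19.7%) had an unadjusted p under 0.05 by limma, and the share of all genes is not given here.

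MRPL37, a large-subunit protein found only in mitochondria, was at 81.4, 86.8 and 89.9 TPM with scramble and at 56.7, 51.7 and 59.2 TPM with Nrf2 siRNA, 64.9% of the scramble mean. The groups lay far apart for their spread, and the log2 difference was -0.62 (SE 0.15, 95% interval -0.94 to -0.29, limma adjusted p = 0.108). The Pink1 siRNA samples had 71.9, 80.9 and 94.5 TPM, around the scramble values, and the double siRNA samples 58.4, 65.1 and 80.1 TPM, below all of them. Rescaled, it was called with Nrf2 siRNA (log2 -0.64, limma adjusted p = 0.00905, the 1 member called there against 0.889% of all genes) and with the double siRNA (log2 -0.45, adjusted p = 0.0341). The first of these calls held in 4 of 6 leave-outs, ending without scramble replicate 2 or 3 (adjusted p up to 0.0576). The second held in 1, without double siRNA replicate 1, and ended without each other sample (up to 0.139).

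MRPS24, a small-subunit protein near the entry of the mRNA channel, was at 109.4, 104.0 and 112.7 TPM with scramble and at 88.6, 71.6 and 73.2 TPM with Nrf2 siRNA (log2 -0.48, SE 0.18, limma adjusted p = 0.279). MRPS35, found only in mitochondrial small subunits, whose promoter window with the antioxidant core is shown above, was at 42.0, 35.2 and 38.5 TPM with scramble and at 30.5, 23.5 and 26.5 TPM with Nrf2 siRNA (log2 -0.51, SE 0.19, limma adjusted p = 0.279). Both were below scramble in every sample of the group. MRPL52 of the central protuberance was at 41.1, 48.1 and 69.9 TPM with scramble, a wide spread, and at 40.3, 29.5 and 36.4 TPM with Nrf2 siRNA. MRPL20, a large-subunit protein with a bacterial counterpart, was at 49.9, 63.7 and 60.6 TPM with scramble and at 46.5, 40.0 and 48.0 TPM with Nrf2 siRNA.

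MRPS31 and MRPL49 were above scramble in every Nrf2 siRNA sample. MRPS31, of the small subunit, was at 10.6, 9.84 and 11.7 TPM with scramble and at 17.2, 11.8 and 13.6 TPM with Nrf2 siRNA, where replicate 1 carried most of the difference (log2 0.37, SE 0.23, limma adjusted p = 0.58). A pseudogene, MRPS31P5, had a mean of 1.29 TPM, so part of its reads could be assigned to either copy. MRPL49, of the large subunit, was at 74.4, 72.4 and 73.9 TPM with scramble and at 75, 77.6 and 76.8 TPM with Nrf2 siRNA. Its group means differed by 0.06 in log2, its nearest samples were at 74.4 and 75 TPM, and its groups overlapped after rescaling.

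Of the 8 genes with an antioxidant core in their promoter window, MRPL39, MRPS14 and MRPS35 had Nrf2 siRNA samples all below scramble, MRPL49 all above, and the other 4 overlapped scramble (9.26% of all genes tested were below and 13.6% above). Their log2 differences ran from -0.51 (MRPS35) to 0.14 (MRPS2). By position in the ribosome, the median log2 difference with Nrf2 siRNA was -0.22 for the 15 small-subunit genes with a bacterial counterpart, -0.22 for the 11 other large-subunit genes found only in mitochondria, -0.17 for the central protuberance and -0.06 for the stalk.

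**Figure D5:**
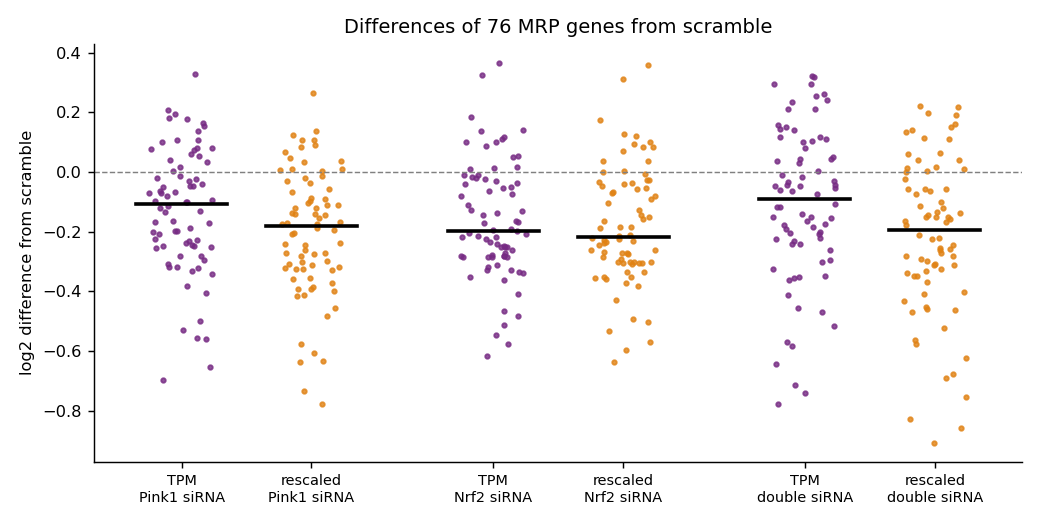
Log2 difference from scramble of each of the 76 genes (points) with Pink1, Nrf2 and double siRNA, from TPM as deposited (purple) and rescaled without ENSG00000226958 (orange); black bars are medians and the dashed line is 0. The medians are -0.11, -0.20 and -0.09 as deposited and -0.18, -0.22 and -0.20 rescaled.

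With the double siRNA, 50 of the 76 genes were lower on average than with scramble, with MRPL1, MRPL42, MRPS18C, MRPS36, MRPL33 and MRPS24 among the largest differences. The median log2 difference was -0.09, against 0.00588 over all genes tested, of which 48.5% were lower. All samples were below scramble for 9 genes (11.8%, against 7.82% of all genes) and above for 1, MRPS2 (against 10.2%). limma called 0 of the 76, against 0.753% of all genes (smallest adjusted p 0.168), and 8 had an unadjusted p under 0.05 (10.5%, against 14.2% of all genes). The median was above 0, at 0.0774, without double siRNA replicate 1, and -0.285 without double siRNA replicate 3. After rescaling it was -0.20, between -0.27 and -0.154 with each sample left out, and 25 genes (32.9%) were apart below scramble, against 14.2% of all genes, with 1 above, against 6.98%. On that scale 23 of the 76 (30.3%) had an unadjusted p under 0.05 by limma, and the share of all genes is not given here.

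These samples differed among themselves more than those of any other group. The median SD of a member over the 3 samples was 0.401 in log2 with the double siRNA, against 0.151 with scramble, 0.177 with Pink1 siRNA and 0.182 with Nrf2 siRNA. Replicate 1 was below replicate 3 for 73 of the 76 genes (96.1%), against 72.4% of all genes, with a median gap of 0.761 against 0.352. After rescaling it was below for 53 (69.7%), against 41.5% of all genes, and the SD was 0.219.

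MRPS24 was at 69.4, 61.4 and 90.5 TPM with the double siRNA, all below its scramble values of 104.0 to 112.7 TPM, and its mean was 67.9% of scramble. The log2 difference was -0.57 (SE 0.18, 95% interval -0.96 to -0.18, limma adjusted p = 0.168). It was called after rescaling (log2 -0.68, adjusted p = 0.0248, 1 of 2 members against 2.06% of all genes), a call that ended without any of the 3 scramble samples or double siRNA replicate 2 (adjusted p up to 0.0921). MRPL42 was at 9.20, 18.9 and 18.5 TPM (log2 -0.74, SE 0.26, limma adjusted p = 0.21) and lay below scramble here as with Pink1 siRNA. MRPL32 was at 16.5, 24.7 and 31.2 TPM and was thereby the only member below every scramble sample in all 9 siRNA samples as deposited (1.32% of the 76, against 1.88% of all genes). After rescaling there were 12 such members (15.8%, against 3.61% of all genes): MRPL18, MRPL22, MRPL32, MRPL33, MRPL39, MRPL47, MRPL57, MRPS9, MRPS14, MRPS16, MRPS24 and MRPS35. No member was above every scramble sample in all 9, as deposited (against 3.4% of all genes) or rescaled (against 2.1%).

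MRPS18C was at 13.9, 12.8 and 33.2 TPM with the double siRNA, with replicate 3 inside the scramble range (log2 -0.71, SE 0.30, limma adjusted p = 0.297). Without replicate 3 the difference was -1.13 with a limma adjusted p of 0.0435, a call made only with that sample left out. It was then the 1 member called, beside 70 of 13809 genes. MRPS18A stayed at 25.7 ± 3.48 TPM (SD, n = 3) and MRPS18B at 43.2 ± 4.88 TPM, both overlapping scramble, and the difference between paralogs was not tested. MRPS36, the dehydrogenase component, was at 11.2, 13.1 and 11.4 TPM, below all scramble and all Pink1 siRNA samples (log2 -0.64 against scramble, SE 0.29, limma adjusted p = 0.342). Technical replicates of these genes differed widely. Their SD in log2 was 0.475 for MRPS36 and 0.463 for MRPS18C, against a median of 0.165 over the family. The SD between samples of a group was 0.416 and 0.429. MRPL1, the protein of the mobile stalk at the exit of spent tRNA, was at 4.41, 20.9 and 20.6 TPM, so that its log2 difference of -0.78 (SE 0.45, limma adjusted p = 0.466) came mainly from replicate 1.

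Other members were level with scramble or above it. MRPS2, of the small subunit, was at 29.4, 26.4 and 32.1 TPM with scramble and at 33.7, 36.1 and 41.0 TPM with the double siRNA (log2 0.32, SE 0.15, limma adjusted p = 0.365). The 5 stalk genes had a median log2 difference of 0.26 (0.16 after rescaling), with 4 of the 5 higher on average. MRPL12 was at 26.7, 22.6 and 45.1 TPM and MRPL11 at 46.4, 56.2 and 99.5 TPM, each with replicate 3 far above the other samples. The median of the central protuberance was 0.06 as deposited and -0.04 after rescaling, so its sign depended on the scale, while that of the small subunit was -0.14 and -0.25.

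Comparing the siRNA groups with each other asks whether the double siRNA differed from either single one. Against Pink1 siRNA the median log2 difference of the family was 0.00993, with 37 genes lower and 39 higher, and it was 0.195 without double siRNA replicate 1 and -0.128 without replicate 3. limma called 0 members, against 0.0434% of all genes, and 1 had an unadjusted p under 0.05 (MRPS36, log2 -0.65, against 5.8% of all genes). MRPS36 was also the 1 member with all samples lower, against 5.67% of all genes, and 0 had all samples higher, against 3.18%. Against Nrf2 siRNA the median was 0.09 (0.01 after rescaling, 0.258 without double siRNA replicate 1 and -0.11 without replicate 3), with 0 members called, against 0.0145% of all genes, and 2 with an unadjusted p under 0.05 (against 6.95%). Those were MRPS18C, at 33.7, 41.6 and 40.5 TPM with Nrf2 siRNA and lower with the double siRNA by 1.04 in log2 (95% interval 0.40 to 1.68 lower, limma adjusted p = 0.423), and MRPL52, at 36.8, 56.0 and 79.7 TPM with the double siRNA and higher by 0.63 (limma adjusted p = 0.649). MRPS18C was the 1 member with all double siRNA samples below all Nrf2 siRNA samples (against 5.66% of all genes), and MRPS2 and MRPS5 were the 2 with all above (against 3.83%).

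Between the single siRNA groups the smallest adjusted p was that of MRPL37, which was higher with Pink1 than with Nrf2 siRNA by 0.55 in log2 (95% interval 0.22 to 0.88, limma adjusted p = 0.126). The groups did not overlap. Its call after rescaling (log2 0.49, adjusted p = 0.0225) held in 1 of 6 leave-outs, and it was the 1 member called on that scale against 2.11% of all genes. limma called 0 of the 76 as deposited, against 0.992% of all genes, with 2 at an unadjusted p under 0.05, against 11.2%. MRPS5, MRPS15, MRPS27, MRPL24 and MRPL52 also had all Pink1 siRNA samples above all Nrf2 siRNA samples (6 genes with MRPL37, against 9.41% of all genes), and MRPL47, MRPS18C and MRPS22 had them all below (3.95%, against 9.41% of all genes).

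The interaction asks whether the double siRNA difference departs from the sum of the single ones. Its median over the family was 0.21 in log2, against -0.0335 over all genes tested. Of the 76 genes, 62 were above 0 and 18.4% below, against 54.0% of all genes below. limma called 0 members and 0 of all genes (0.0%), and 2 members had an unadjusted p under 0.05 (2.63%, against 5.45%): MRPL47 (log2 0.63, limma adjusted p = 0.822) and MRPL52 (log2 0.84, adjusted p = 0.9). As deposited the median was 0.39 without double siRNA replicate 1 and -0.0019 without double siRNA replicate 3. After rescaling it was 0.196, with 60 of the 76 above 0, against -0.05 over all genes tested. On that scale it was 0.25 without double siRNA replicate 1 and 0.112 without replicate 3. There limma called 0 members and 2 of 14735 genes. An unadjusted p under 0.05 was found for 10 members (13.2%), and the share of all genes is not given here.

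Genes that build or serve the mitochondrial ribosome were compared in the same fit. The 5 ribosomal proteins without an MRP symbol, among them DAP3 (62.0 ± 1.68 TPM with scramble, SD, n = 3) and AURKAIP1 (66.1 ± 4.14 TPM), had median log2 differences of -0.09, -0.16 and -0.07 with Pink1, Nrf2 and double siRNA, with 0 called. The 24 assembly factors measured, among them NGRN (85.4 ± 3.83 TPM with scramble) and MALSU1 (60.9 ± 10.6 TPM), had medians of 0.03, -0.06 and 0.03, of which the first and last fell below 0 after rescaling, and 0 were called. The 16 translation factors, among them the elongation factor TUFM (128.9 ± 7.72 TPM with scramble) and the membrane insertase OXA1L (76.9 ± 5.93 TPM), had medians of -0.07, -0.13 and -0.00464, with 0 called. After rescaling 1 was called, the elongation factor GFM2, lower with Pink1 siRNA (20.2 ± 1.60 TPM with scramble and 13.3 ± 1.42 TPM as deposited, where the log2 difference was -0.57 with a limma adjusted p of 0.195). The 17 mitochondrial aminoacyl-tRNA synthetases, which charge the tRNAs and include IARS2 (66.8 ± 4.43 TPM with scramble) and CARS2 (34.3 ± 0.573 TPM), had medians of 0.05, -0.05 and 0.07, again with signs that turned after rescaling for Pink1 and double siRNA, and 0 were called.

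The 20 genes of mitochondrial transcription and RNA processing, among them the RNA granule protein GRSF1 (108.4 ± 10.2 TPM with scramble), had medians of -0.21, -0.18 and -0.10, and 9, 3 and 3 of them had siRNA samples all below scramble (against 11.2%, 9.26% and 7.82% of all genes), with 0 called. SLIRP, which stabilises mitochondrial mRNAs, was at 119, 112 and 142 TPM with scramble, at 74.8, 90.6 and 75.4 TPM with Pink1 siRNA and at 54.5, 77.6 and 97.2 TPM with the double siRNA. It was below every scramble sample in both groups. After rescaling limma called it in both, and TFAM, the packaging factor of mitochondrial DNA, with Pink1 siRNA. Among 8 regulators of nuclear genes for mitochondria tested, PPARGC1A, the coactivator PGC-1α, rose with Pink1 siRNA from 1.19, 2.08 and 1.60 TPM to 4.21, 4.39 and 7.83 TPM (log2 1.28, SE 0.24, limma adjusted p = 0.0318). That call ended when any of the 6 samples was left out, and the other 7 regulators were not called. PPARGC1A was also at 4.0, 3.68 and 3.47 TPM with Nrf2 siRNA (log2 0.86, limma adjusted p = 0.151). With the double siRNA it was at 2.31, 2.74 and 2.13 TPM (log2 0.38, limma adjusted p = 0.492). As deposited all 9 siRNA samples were thus above all 3 scramble samples, as for 3.4% of all genes. The nearest were double siRNA replicate 3 at 2.13 TPM and scramble replicate 2 at 2.08 TPM. Their shares of ENSG00000226958 were 15.5% and 36.3%, so their order turned after rescaling and the groups overlapped.

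Of 57 ribosomal proteins of the cytosol tested, 3, 39 and 2 were lower on average than scramble with Pink1, Nrf2 and double siRNA, and their medians were 0.27, -0.08 and 0.34 in log2 (0.20, -0.10 and 0.24 after rescaling). With the double siRNA RPLP0, the base of the cytosolic stalk, rose (log2 1.01, SE 0.21, limma adjusted p = 0.0424), a call that ended without any scramble sample or without double siRNA replicate 2 or 3. After rescaling limma called RPLP0 and RPSA higher with Pink1 and with double siRNA. The rescaled sum of the 57 was 104000 with scramble and 119%, 96.0% and 122% of that in the siRNA groups, beside 86.7%, 86.8% and 87.2% for the mitochondrial family. The difference between the families was not tested.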

How the data were processed

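The deposited table gives TPM per Ensembl gene for 24 libraries, which the authors made with STAR, RSEM and edgeR on GRCh37/hg19, per the submitters' processing notes. Versions and settings: not given in the sources used here. Libraries were TruSeq stranded mRNA from 100 ng of RNA, read as pairs of 126 bases, per the labels' protocols. Columns sum to between 999678 and 999945, and depth is unknown. Of the 24053 identifiers, 22789 were in the name table and 19325 had a symbol. The 2 technical replicates of each sample were averaged. The labels do not say that biological replicates came from separate cultures, so p-values measure only the spread between these samples.

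The 13810 genes averaging 1 TPM or more were fitted on log2(TPM + 1) over all 4 groups with limma 3.58.1 in R 4.3.3 (8 residual and 4.93 prior degrees of freedom), with Benjamini-Hochberg adjustment over all genes tested. After rescaling the same filter kept 14735 genes, the base of the rescaled adjustment and shares of all genes. The rescaled share of 41.5% for double siRNA replicates 1 and 3 is over 13809 genes. Fold changes on this scale understate those of low genes. Summaries used Python 3.11.15, pandas 2.3.3, numpy 2.4.6 and scipy 1.17.1. The fit was tested on simulated data. Alternatives changed the pseudocount, the filter, the scaling, the technical replicate used, the samples fitted, sample weights and a replicate block. The removal of ENSG00000226958 was combined with leaving out each sample after the data were seen. Members are named with values if called in a comparison, if among the 5 largest differences each way from scramble whose samples do not overlap, if among the 6 highest or 4 lowest means, or for a fixed role (stalk, decoding centre, MRPS18 paralogs, MRPL58). From each other list up to 3 genes called as deposited are named, or 2 with the highest means where none was. MRPL1, MRPS5 and the other markers were chosen after their values were seen. So were the list genes outside these rules that were called only after rescaling (GFM2, TFAM, RPSA, SERPINF1 and KRT18). The same holds for other members named only as apart, in a promoter count or by an unadjusted p. Members and lists were chosen with earlier results of these data known.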

Additional observations from a re-analysis of the deposited data

How the results depend on the processing

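The report's calls depended on the scaling and on single samples. The number of members called for Pink1, Nrf2 and double siRNA against scramble was 0 each as deposited. With ENSG00000226958 removed it was 2, 1 and 2, with quantile normalization 1, 1 and 2, with median-of-ratios rescaling 1, 1 and 0, and with sample weights 5, 3 and 16. Over all genes the calls for these 3 comparisons were 65, 46 and 104 as deposited, 172, 131 and 304 with the identifier removed, 215, 167 and 295 with quantile normalization, 171, 148 and 335 with median-of-ratios rescaling, 814, 808 and 3067 with sample weights and 40, 30 and 106 with a replicate block. In the fit with sample weights the estimation of weights stopped early, with a weight of 11.4 for double siRNA replicate 2 and 0.211 and 0.291 for replicates 1 and 3. It also called 11 members for double against Pink1 siRNA, 7 for double against Nrf2 siRNA, 3 for Pink1 against Nrf2 siRNA, 4 for the interaction and 21 for any difference among the groups, beside 2440, 1886, 1069, 504 and 4770 of all 13810 genes. For Pink1 against Nrf2 siRNA 1 member was called under each of the 3 scalings (296, 342 and 311 of all genes with median-of-ratios, quantile and removal). For any difference it was 1, 1 and 2 in that order, of 441, 445 and 403 genes. With the double siRNA samples left out of the fit (an alternative chosen after seeing the data), 1 member was called for Pink1, 1 for Nrf2 and 1 for Pink1 against Nrf2 siRNA, of 175, 155 and 274 genes. Leaving out each sample in turn gave 0 to 1 for double siRNA and for any difference, and 0 for the other comparisons. The counts of 1 came without double siRNA replicate 3, beside 70 and 196 of 13809 genes. With the identifier also removed (also chosen after seeing the data) the ranges were 0 to 1 for Pink1, Nrf2 and Pink1 against Nrf2 siRNA, 0 to 2 for double siRNA and 1 to 3 for any difference. The highest counts went with 56 of 14726 genes for Pink1, 48 to 211 genes for Nrf2 and 391 of 14698 for Pink1 against Nrf2 siRNA. For double siRNA they went with 173 of 14709 and 238 of 14791 genes, and for any difference with 414 of 14709. The family's median stayed below 0 under all 3 scalings for each siRNA group against scramble. The median log2 difference with Pink1 siRNA was -0.182 with the identifier removed, and -0.212 to -0.16 when each sample was also left out (-0.195 and -0.212 without scramble replicates 1 and 2, and -0.2, -0.207 and -0.185 without Pink1 siRNA replicates 1, 2 and 3). MRPL49 with Nrf2 siRNA turned to -0.0279 without Nrf2 siRNA replicate 2 and with the identifier removed. The causes of these shifts were not tested. With a replicate block, 0 members were called in every comparison. Deviations of same-numbered samples correlated between -0.0846 and 0.113, and those of samples with different numbers between -0.131 and 0.173. The labels do not say that the number marks a shared day or batch. These correlations cannot decide whether same-numbered samples were paired. Depth is unknown and 3 samples a group limit the precision of every value.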
